A study of Mus musculus with 12 samples.

Results

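The interferon-induced transmembrane (Ifitm) genes Ifitm1, Ifitm2, Ifitm3, Ifitm6, Ifitm7 and Ifitm10 and the Ifitm1-like pseudogene Gm7676 were followed across PreMegEs, the bone marrow progenitors from which megakaryocytes and erythroid cells descend. These 7 genes, of the 41128 in the count table, were chosen by name because Ifitm1 and Gm7676 were lower in RUNX1C KO PreMegEs than in all other groups. Values in RUNX1C KO PreMegEs are therefore given as a description with no test, and tests of the chosen genes are confined to the other groups. All RUNX1C KO libraries of Ifitm1, Gm7676, Ifitm2 and Ifitm3 were below those of WT, at 9.80% of the WT level for Ifitm1, 74.1% for Ifitm2 and 66.7% for Ifitm3. Over all genes, 16.1% lay below WT in this way. Against P2- and P2+ PreMegEs, 3 of these 4 genes did, with 9.99% and 24.9% of all genes. Ifitm3 was at 114% of the P2- level. Ifitm6, Ifitm7 and Ifitm10 had few or no counts in every group and were too low to be tested.

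Gene expression was measured by RNA-Seq in PreMegEs of C57BL/6 mice aged 12 to 16 weeks, with 3 libraries in each of 4 groups and 3 mice pooled in each library. WT PreMegEs came from wild type mice. P2- and P2+ PreMegEs came from the same kind of mouse, Runx1 P1-GFP::P2-hCD4/+, in which GFP reports the distal promoter (P1) and human CD4 the proximal promoter (P2) of Runx1, and P1+ cells were split by absence or presence of human CD4. RUNX1C KO PreMegEs came from mice in which GFP replaces the P1-derived transcript on both alleles, so that RUNX1C, the isoform from P1, is missing while P2 is left intact. The reporter mice are heterozygous for an allele that the study treats as lowering Runx1 dosage, and WT mice lack it, so reporter genotype and cell fraction cannot be told apart in a comparison of P2- or P2+ with WT PreMegEs. The sources used here do not say whether the RUNX1C KO libraries were prepared and sequenced with the others, so genotype and library batch cannot be told apart either. The study's account of its RNA-Seq covers WT, P2- and P2+ PreMegEs and does not mention RUNX1C KO libraries.

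IFITM proteins are small membrane proteins that hinder the fusion of enveloped viruses with the cell. IFITM1 sits largely at the cell surface, and IFITM2 and IFITM3 sit mainly in endosomes. The genes are induced by interferon, and stem and progenitor cells are known to express some of them without interferon.

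Library totals lay between 10726098 and 14445026 counts (median 12284879), and a count of 3, taken as the floor of detection, equalled between 0.207 and 0.288 CPM (counts per 1000000, scaled by the TMM method). Runx1 itself was at 363, 387 and 357 CPM in the WT libraries and at 341, 381 and 357 CPM in the RUNX1C KO libraries, but a count per gene pools the transcripts of both promoters and so does not check the loss of RUNX1C. Markers of the labelled cell type were present, with between 17 and 20 of 20 megakaryocyte genes and between 18 and 21 of 21 erythroid genes over 3 counts in each library. Replicate 2 of P2- and replicate 2 of P2+ stood apart. Their summed level of 17 immediate early genes was 14100 and 9630 CPM, against between 232 and 1370 CPM in the other 10 libraries, and the fold changes of the members and the list counts that rest on these libraries are given with and without them.

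The sequences of Ifitm1 and Gm7676 are shown because their near identity decides how far their counts can be separated. Ifitm1 (ENSMUSG00000025491) is a protein-coding gene at chr7:140967221-140969825 on the plus strand of GRCm38. Gm7676 (ENSMUSG00000068631), at chr8:13896311-13896629 on the plus strand, is a processed pseudogene in GENCODE vM21 but carries a protein-coding label in the count table. All 319 bases of Gm7676 aligned to an Ifitm1 transcript without a gap, at 97.5% identity, and ran over the coding sequence. The 2 lines below give bases 20 to 319 of Gm7676, from chr8:13896330-13896629, and the matching bases of Ifitm1, which come from 2 exons at chr7:140968275-140968438 and chr7:140969489-140969624. Capitals mark the 8 substitutions.
Gm7676: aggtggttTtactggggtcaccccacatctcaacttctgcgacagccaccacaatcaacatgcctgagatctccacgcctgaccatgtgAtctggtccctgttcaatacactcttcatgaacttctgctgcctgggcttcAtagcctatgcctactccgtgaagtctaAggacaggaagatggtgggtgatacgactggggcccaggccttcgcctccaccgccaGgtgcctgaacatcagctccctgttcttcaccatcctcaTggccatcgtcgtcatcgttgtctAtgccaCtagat
Ifitm1: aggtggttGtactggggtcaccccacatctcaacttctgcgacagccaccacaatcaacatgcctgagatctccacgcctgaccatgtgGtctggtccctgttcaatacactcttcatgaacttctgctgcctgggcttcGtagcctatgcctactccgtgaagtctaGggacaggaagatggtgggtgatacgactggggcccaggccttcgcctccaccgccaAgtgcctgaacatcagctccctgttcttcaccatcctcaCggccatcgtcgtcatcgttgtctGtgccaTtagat

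Written as Ifitm1 base, position from the first base of Gm7676 and Gm7676 base, the substitutions are G28T, G109A, G160A, G188A, A245G, C284T, G308A and T314C. Of the 245 windows of 75 bases, the read length, that Gm7676 holds, only 6 occur unchanged in an Ifitm1 transcript, and the others differ from Ifitm1 at up to 4 bases. Gm7676 has no intron, and the exon junction of Ifitm1 falls after its base 183. The 74 windows across that junction differ from Ifitm1 at 1 or 2 bases each. The aligner used by the authors, Bowtie2, does not split a read across an intron, and how reads with several alignments were counted is not given in the sources used here. Reads of Ifitm1 that cross the junction and reads of Gm7676 can thus not be told apart in these counts, and the level of Gm7676 cannot be read as transcription of the pseudogene.

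Ifitm1 was lower in every RUNX1C KO library than in every other library. Its level was 63.6, 67.0 and 65.4 CPM in the WT libraries, 28.8, 65.1 and 20.7 CPM in P2-, 34.3, 40.4 and 25.7 CPM in P2+, and 8.21, 7.27 and 3.73 CPM in RUNX1C KO. The WT libraries lay close together, the P2- libraries were spread widely with replicate 2 at the WT level, and the highest KO library was below the lowest library of any other group. These values rest on 94, 85 and 41 counts in the KO libraries, well over the floor of 3 counts. The group means were 65.3 ± 1.68 CPM in WT, 38.2 ± 23.7 in P2-, 33.5 ± 7.38 in P2+ and 6.40 ± 2.36 in RUNX1C KO (SD, n = 3 each).

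Described as folds, Ifitm1 in RUNX1C KO PreMegEs was 10.2-fold lower than in WT, 5.94-fold lower than in P2- and 5.28-fold lower than in P2+ PreMegEs. The level left in the KO was 9.80% of WT. Without replicate 2 of P2-, the difference from P2- was smaller, at a log2 fold change of -1.94 in place of -2.57, and without replicate 2 of P2+ the difference from P2+ was -2.24 in place of -2.40. Because these libraries are bulk, fewer cells with Ifitm1 RNA and less Ifitm1 RNA per cell cannot be told apart.

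Gm7676 followed Ifitm1. Its level was 41.3, 55.4 and 53.5 CPM in the WT libraries, 25.2, 61.0 and 15.8 CPM in P2-, 28.5, 41.4 and 30.7 CPM in P2+ and 7.07, 5.82 and 4.46 CPM in RUNX1C KO. The KO libraries again lay below all others, and replicate 2 of P2- was above all WT libraries. The folds described for Gm7676 in RUNX1C KO were 8.67-fold below WT, 5.86-fold below P2- and 5.87-fold below P2+ PreMegEs. Without replicate 2 of P2-, its log2 fold change from P2- was -1.82 in place of -2.55, and without replicate 2 of P2+ that from P2+ was -2.37 in place of -2.55.

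Counts on Gm7676 amounted to between 0.649 and 1.20 of those on Ifitm1 in the 12 libraries. The mean ratio was 0.764 ± 0.10 in WT, 0.859 ± 0.0872 in P2-, 1.02 ± 0.186 in P2+ and 0.954 ± 0.215 in RUNX1C KO (SD, n = 3 each), and the RUNX1C KO range of 0.800 to 1.20 took in libraries of all other groups. Per length of the annotated exons, Gm7676 stood at a mean of 96.7 RPKM (CPM per kilobase) over the 12 libraries and Ifitm1 at 32.8. Ifitm1 and Gm7676 added together were at 115 ± 9.07 CPM in WT, 72.2 ± 47.4 in P2-, 67.0 ± 13.2 in P2+ and 12.2 ± 3.64 in RUNX1C KO (SD, n = 3 each). In the plot of Ifitm1 against Gm7676 by library, the points follow the line of equal CPM from the KO libraries to the WT libraries.

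**Figure D1:**
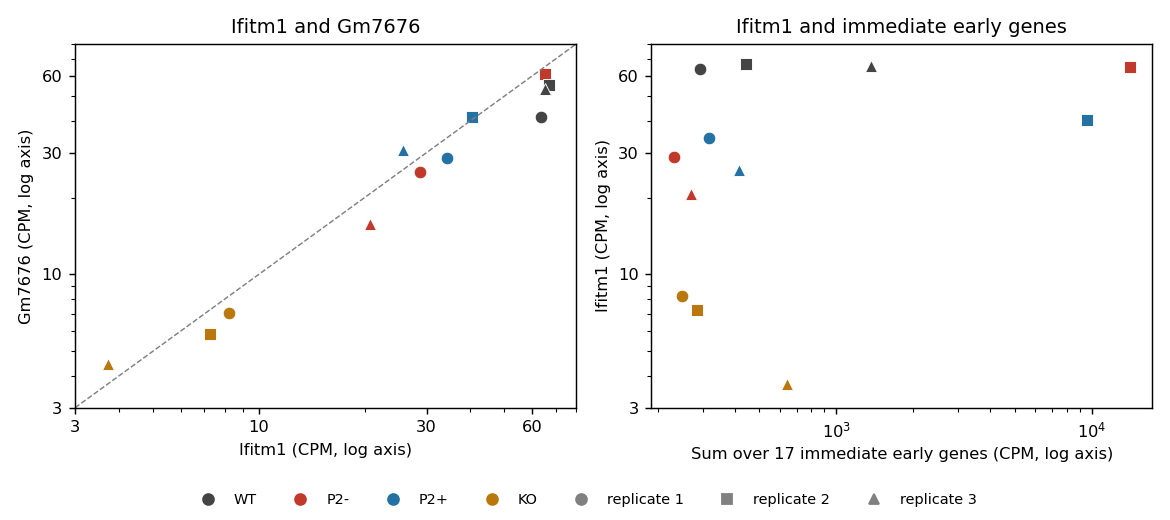
Each point is 1 library, coloured by group and shaped by replicate number. The left panel plots Gm7676 against Ifitm1 in CPM on log axes with a dashed line of equality, and the KO libraries sit between 3.73 and 8.21 CPM of Ifitm1, apart from all others. The right panel plots Ifitm1 in CPM against the summed CPM of 17 immediate early genes, both on log axes, with replicate 2 of P2- and P2+ at 14100 and 9630 CPM on the horizontal axis.

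Ifitm2 (ENSMUSG00000060591, chr7:140954837-140955987, minus strand) was the most abundant member per length, at a mean of 224 RPKM over the 12 libraries. It was at 162, 154 and 194 CPM in WT, 139, 159 and 156 CPM in P2-, 128, 133 and 157 CPM in P2+ and 113, 136 and 128 CPM in RUNX1C KO. The groups lay close, although all 3 KO libraries were below all 3 WT libraries. The described KO level was 74.1% of WT, 83.0% of P2- and 90.1% of P2+. Leaving out replicate 2 moved its log2 fold change from P2- from -0.27 to -0.23 and that from P2+ from -0.17 to -0.20.

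Ifitm2 shares 42.0% of its 75-base windows with other annotated genes, most of them processed pseudogenes. Another of them, Gm45717, is annotated as protein-coding, overlaps exons of Ifitm2 on the same strand and is absent from the count table. Part of the shared windows is thus the Ifitm2 locus itself. The pseudogene with the most counts, Gm11951 on chromosome 11, is 97.0% identical over 432 bases. Its counts were between 0.210 and 0.352 of those of Ifitm2, so the split of reads between Ifitm2 and its copies is uncertain. Gm11951 did not pass the test between RUNX1C KO and WT PreMegEs (log2 fold change -0.15, SE 0.12, adjusted p = 0.49) and was lower than in P2+ at -0.31 (SE 0.11, adjusted p = 0.0432), a call lost without replicate 2 of P2+ (-0.28, adjusted p = 0.0729). With Gm11951 and Gm8865 added to it, a sum chosen after seeing the data, the Ifitm2 log2 fold change from WT was -0.38 in place of -0.44.

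Ifitm3 (ENSMUSG00000025492, chr7:141009586-141010770, minus strand), the best studied antiviral member, separated the groups in another order. It was at 67.1, 81.2 and 84.7 CPM in WT, 38.0, 49.5 and 49.2 CPM in P2-, 88.1, 76.3 and 116 CPM in P2+ and 50.5, 57.0 and 48.0 CPM in RUNX1C KO. The KO libraries were below the WT and P2+ libraries and overlapped the P2- libraries. The described KO level was 66.7% of WT, 55.4% of P2+ and 114% of P2-. Leaving out replicate 2 moved its log2 fold change from P2+ from -0.87 to -1.0 and that from P2- from 0.18 to 0.25.

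**Figure D2:**
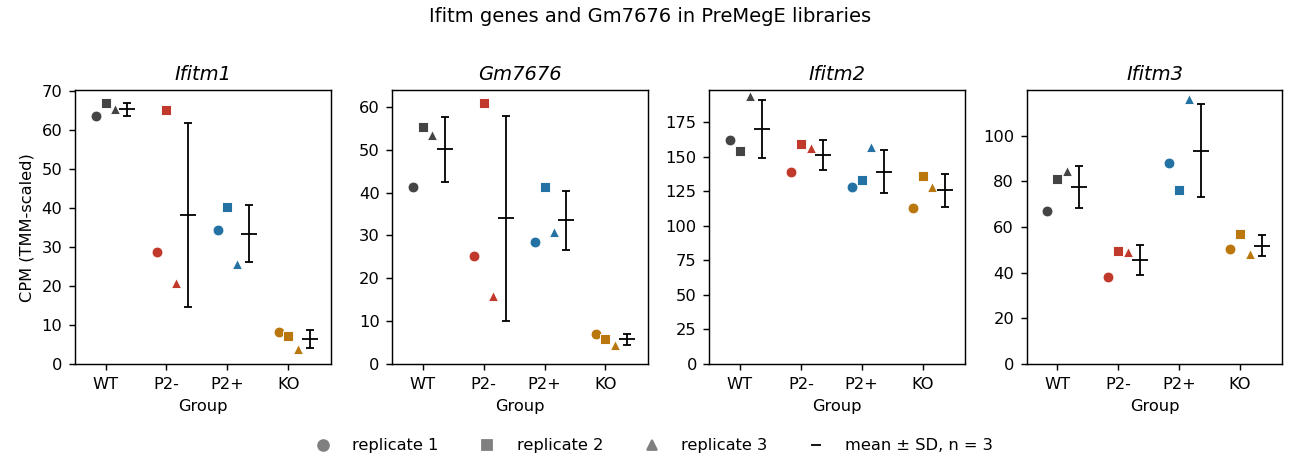
The 4 panels show the TMM-scaled CPM of Ifitm1, Gm7676, Ifitm2 and Ifitm3, with 1 point per library, shaped by replicate number, and the mean ± SD of the 3 libraries of each group as a black bar. Ifitm1 and Gm7676 are lowest in all 3 KO libraries, Ifitm2 lies between 113 and 194 CPM, and Ifitm3 is high in WT and P2+ and low in P2- and KO.

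Ifitm6, Ifitm7 and Ifitm10 did not reach 1 CPM in 3 libraries of any pair of groups and were left out of the tests. Ifitm6 (ENSMUSG00000059108, chr7:141015699-141017924, minus strand) had 16 counts in all. The 9 and 4 of them in replicates 1 and 2 of P2- were the only values over 3 counts, and its RUNX1C KO libraries were at 0, which allows up to 3 counts in each. Ifitm10 (ENSMUSG00000045777, chr7:142325837-142373753, minus strand) had 42 counts in all and was over 3 counts in 4 of the 12 libraries.

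Ifitm7 (ENSMUSG00000065968, chr16:13981699-13986888, minus strand) had 13, 8 and 9 counts in the WT libraries, 0 in each P2- library, 7, 2 and 6 in P2+ and 10, 0 and 3 in RUNX1C KO. Against the floor of 3 counts per library in P2-, the WT level was at least 3.02-fold higher, and no test was run. Exons of Ifitm7 overlap those of 2900011O08Rik on the other strand, and whether the counting used strand is not given, so these few counts are uncertain. The 4 abundant members together were at 363 ± 31.9 CPM in WT, 269 ± 57.1 in P2-, 300 ± 26.7 in P2+ and 190 ± 14.4 in RUNX1C KO (SD, n = 3 each). Ifitm1 and Gm7676 made up 31.8% of this sum in WT and 6.44% in RUNX1C KO.

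Of the 7 members, 4 entered the comparisons. In RUNX1C KO PreMegEs, 2 of these 4, Ifitm1 and Gm7676, had a fitted log2 fold change of -1 or lower against WT, where 3.43% of all genes tested had one. The same 2 members were that much lower against P2-, where 0.890% of genes were, and against P2+, where 9.24% were. The libraries of all 4 members lay below those of WT without overlap, as did 16.1% of all genes. Against P2-, 3 of 4 did so, with 9.99% of all genes, and against P2+, 3 of 4, with 24.9%. These contrasts chose the members, and nothing is read from the counts. Of all 12784 genes tested between RUNX1C KO and WT PreMegEs, 14.9% passed an adjusted p under 0.05.

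**Figure D3:**
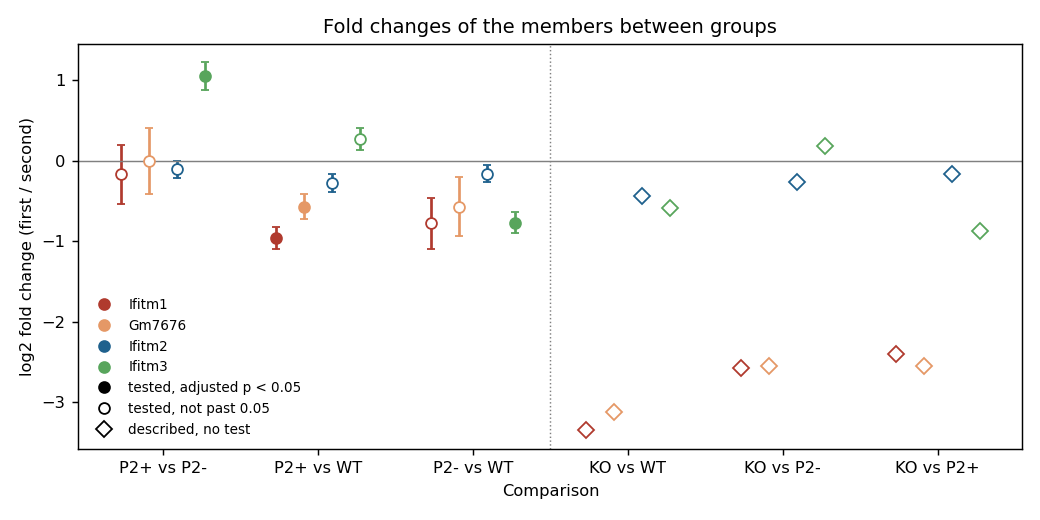
Log2 fold changes of the 4 members that entered the comparisons are plotted for 6 pairs of groups. Circles with SE bars were tested with edgeR and are filled where the adjusted p is under 0.05, and open diamonds are KO values described without a test. Ifitm3 is the filled point at 1.05 for P2+ against P2-, and Ifitm1 and Gm7676 lie between -2.40 and -3.35 in the KO comparisons.

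The split of reporter PreMegEs by P2 activity was not used to choose the genes and asks whether the members differ between the P2- and P2+ fractions. Ifitm3 was higher in P2+ than in P2- PreMegEs, and the other 3 members did not pass the test. The log2 fold change of Ifitm3 was 1.05 (SE 0.17, adjusted p = 0.00132, edgeR quasi-likelihood test with Benjamini-Hochberg adjustment), and all 3 P2+ libraries were above all 3 P2- libraries. Thus 1 of 4 members was called where 37.1% of 12836 genes were, a share near the background. With the study's 2-fold minimum it was again 1, and 12.7% of genes. In relation to Ifitm2, Ifitm3 stood at a per-length ratio of 0.644 ± 0.0817 in P2+ and 0.289 ± 0.0226 in P2- (SD, n = 3 each), and the libraries did not overlap.

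Ifitm1 had a log2 fold change of -0.17 in P2+ against P2- (SE 0.37, adjusted p = 0.757), Gm7676 of 0.00 (SE 0.41, adjusted p = 0.998) and Ifitm2 of -0.11 (SE 0.10, adjusted p = 0.431). The SE of Ifitm1 and Gm7676 was over 2 times that of Ifitm3, and replicate 2 of P2- gave most of the spread of these genes in P2-. Without it, Gm7676 passed the test, at a log2 fold change of 0.73 (adjusted p = 0.0373), and Ifitm1 was at 0.45 (adjusted p = 0.137). With replicate 2 of both groups left out, Ifitm3 stayed called at 1.25 (adjusted p = 2.78e-05), Gm7676 was called at 0.56 (adjusted p = 0.0414), and Ifitm1 was at 0.31 (adjusted p = 0.229) and Ifitm2 at -0.02 (adjusted p = 0.893).

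Against WT, both reporter fractions had members at lower levels. In P2+ PreMegEs, Ifitm1 was lower by a log2 fold change of -0.96 (SE 0.14, adjusted p = 0.00142), with all 3 libraries below all WT libraries, and Gm7676 at -0.57 (SE 0.16, adjusted p = 0.0358), with overlapping libraries. These were 2 of 4 members called, where 16.5% of 12941 genes were, and 0 of 4 with a 2-fold minimum, where 3.84% were. The call of Gm7676 was lost when replicate 2 or 3 of WT or replicate 1 or 3 of P2+ was left out, with adjusted p between 0.0959 and 0.139, and with all 12 libraries in 1 fit the adjusted p of Ifitm1 was 0.0521 and that of Gm7676 0.28. Over the alternatives run, the log2 fold change lay between -1.12 and -0.78 for Ifitm1 and between -0.76 and -0.46 for Gm7676. Ifitm2 was at -0.28 (SE 0.11, adjusted p = 0.11) and Ifitm3 at 0.27 (SE 0.14, adjusted p = 0.236). Without replicate 2 of P2+, 3 members were called, Ifitm1 at -1.12 (adjusted p = 6.26e-05), Gm7676 at -0.76 (adjusted p = 0.00239) and Ifitm3, higher, at 0.40 (adjusted p = 0.0428), and Ifitm2 was at -0.25 (adjusted p = 0.147).

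In P2- PreMegEs, the called member was Ifitm3, lower than in WT by a log2 fold change of -0.77 (SE 0.13, adjusted p = 0.0028), with no overlap between the libraries. This was 1 of 4 members, where 16.5% of 12767 genes were called, and 0 of 4 with a 2-fold minimum, where 4.68% were. Ifitm1 was at -0.78 (SE 0.32, adjusted p = 0.124), Gm7676 at -0.57 (SE 0.37, adjusted p = 0.345) and Ifitm2 at -0.16 (SE 0.10, adjusted p = 0.307). Replicate 2 of P2- was the library whose removal changed the call of Ifitm1 and Gm7676. Without it Ifitm1 was lower than in WT at -1.41 (adjusted p = 1.2e-05) and Gm7676 at -1.30 (adjusted p = 0.000369), Ifitm3 stayed called at -0.84 (adjusted p = 0.000612) and Ifitm2 was at -0.21 (adjusted p = 0.188). With all libraries and no filter on low counts, Ifitm1 was also called, at -0.78 (adjusted p = 0.0117), and Gm7676 was at -0.57 (adjusted p = 0.147).

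The levels of Ifitm1 in the P2- libraries were thus 28.8 and 20.7 CPM in those with 232 and 271 CPM of immediate early genes, and 65.1 CPM in the one with 14100 CPM. In P2+ the library with 9630 CPM of immediate early genes held 40.4 CPM of Ifitm1, and those with 319 and 418 CPM held 34.3 and 25.7 CPM. The WT libraries, at between 293 and 1370 CPM of immediate early genes, held between 63.6 and 67.0 CPM of Ifitm1. The part of the immediate early genes in these levels was not tested.

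Levels of markers of other cell types moved with the groups and are given as measured. The summed CPM of 20 neutrophil and monocyte genes was between 225 and 451 in WT, 89.5 and 192 in P2-, 398 and 601 in P2+, and 123 and 195 in RUNX1C KO, with between 13 and 19 of the 20 over 3 counts and Cebpe at or under 3 counts in all 12 libraries. The sum over 16 lymphoid genes was between 275 and 306 CPM in WT, 109 and 146 in P2-, 217 and 356 in P2+, and 146 and 154 in RUNX1C KO, with between 6 and 12 genes over 3 counts and the T cell genes Cd3d and Cd3g at or under 3 counts throughout. Nkg7, a granule protein of cytotoxic cells, gave between 66.4% and 81.0% of this sum by group, and without it the other 15 genes summed to between 55.9 and 73.9 CPM in WT, 20.4 and 34.8 in P2-, 46.7 and 153 in P2+, and 45.8 and 57.1 in RUNX1C KO. The sum over 11 macrophage genes was between 58.5 and 70.0 CPM in WT, 101 and 145 in P2-, 12.4 and 17.3 in P2+, and 119 and 147 in RUNX1C KO, with between 3 and 9 genes over 3 counts and Marco at or under 3 counts throughout. Slc40a1, an iron exporter that is not confined to macrophages, gave 85.6% of this sum in WT, 95.6% in P2-, 46.2% in P2+ and 96.8% in RUNX1C KO, and without it the other 10 genes summed to between 8.36 and 10.1 CPM in WT, 4.62 and 7.01 in P2-, 5.78 and 10.1 in P2+, and 3.32 and 5.22 in RUNX1C KO. Cd163 was at a mean of 3.92 CPM in WT and 2.56 CPM in RUNX1C KO. The sum over 10 mast cell and basophil genes was between 37.8 and 59.5 CPM in WT, 25.5 and 29.5 in P2-, 108 and 161 in P2+, and 52.7 and 71.3 in RUNX1C KO, with between 3 and 7 genes over 3 counts and Cma1, Tpsb2 and Tpsab1 at or under 3 counts throughout.

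The sum over 18 stem cell genes was between 2150 and 2220 CPM in WT, 1810 and 2220 in P2-, 2230 and 2470 in P2+, and 1960 and 2210 in RUNX1C KO, with 17 or 18 genes over 3 counts in each library. Kit, a growth factor receptor, gave between 34.4% and 51.7% of this sum by group, and the other 17 genes summed to between 1220 and 1280 CPM in WT, 903 and 1060 in P2-, 1490 and 1590 in P2+, and 979 and 1070 in RUNX1C KO. Between RUNX1C KO and WT PreMegEs, 8 of these 18 genes fell and 2 rose, where 8.76% of all genes fell and 6.18% rose. Mecom, a transcription factor that stem cells need, fell by a log2 fold change of 1.93 (adjusted p = 1.62e-07), Ctnnal1, a catenin-like protein, by 0.97 (adjusted p = 0.00211), Vldlr, a lipoprotein receptor, by 0.84 (adjusted p = 0.00868) and Cd34, a surface protein of progenitors, by 0.81 (adjusted p = 6.06e-05). The genes that rose, named after their values were seen, were Slamf1 by 0.71 (adjusted p = 7.51e-05) and Kit by 0.21 (adjusted p = 0.0484). In P2- PreMegEs, 10 of 17 stem cell genes were lower than in WT and 0 higher, where 9.60% and 6.85% of all genes were, with Mecom at -1.88 (adjusted p = 0.00123), Ctnnal1 at -1.54 (adjusted p = 0.00475), Vldlr at -0.85 (adjusted p = 0.0235) and Cd34 at -1.45 (adjusted p = 9.46e-05). By unadjusted p under 0.05 in edgeR, 1 was higher, and DESeq2 called 0 higher. Leaving out replicate 2 of P2- gave 10 lower and 3 higher, where 10.3% and 6.96% were. Between RUNX1C KO and P2-, 2 of 16 were higher and 0 lower, where 1.33% and 0.278% of all genes were. By unadjusted p under 0.05, 6 were higher and 1 lower, and DESeq2 called 5 higher and 0 lower. Leaving out replicate 2 of P2- gave 3 higher and 1 lower, where 2.47% and 0.811% were.

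The ranges of RUNX1C KO and P2- PreMegEs overlapped for the neutrophil and monocyte, erythroid and stem cell sums and for the macrophage sum with or without Slc40a1. They did not overlap for the mast cell and basophil, the megakaryocyte and, without Nkg7, the lymphoid sums, all higher in RUNX1C KO, nor for Ifitm1, which was lower. Erythroid genes summed to between 6000 and 6710 CPM in RUNX1C KO and between 6210 and 7100 in P2-, against between 3570 and 4120 in WT and between 1470 and 1700 in P2+. Megakaryocyte genes summed to between 1330 and 1400 CPM in RUNX1C KO, 764 and 928 in P2-, 1560 and 1680 in WT, and 2060 and 2880 in P2+. Ifitm1 was between 3.73 and 8.21 CPM in RUNX1C KO and between 20.7 and 65.1 CPM in P2-. The part of the other cell types in the level of Ifitm1 was not tested.

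Receptors, signalling factors and targets of interferon were examined because Ifitm genes belong to that response. Between RUNX1C KO and WT PreMegEs, 6 of 19 genes of interferon receptors and signalling rose and 0 fell, where 6.18% of all genes rose and 8.76% fell. By unadjusted p under 0.05 in edgeR, 3 of them were lower, and DESeq2 called 6 higher and 0 lower. Irf7, a transcription factor that amplifies the type I interferon response, rose by a log2 fold change of 0.79 (SE 0.13, adjusted p = 0.000387). Ifngr2, a subunit of the interferon gamma receptor, rose by 0.67 (SE 0.14, adjusted p = 0.00308), and Ifnar2, a subunit of the type I receptor, by 0.31 (SE 0.08, adjusted p = 0.0122). Exons of Irf7 overlap Phrf1 on the other strand, and exons of Ifnar2 overlap a predicted gene on the same strand, which leaves their counts less certain. Exons of Oasl1, Cd9, Setd7 and Serinc3, named further on, overlap a gene on the other strand.

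Of 53 interferon-stimulated genes tested, 8 rose and 2 fell in RUNX1C KO against WT, where 6.18% of all genes rose and 8.76% fell, and their median log2 fold change was 0.12, against 0.00 over all genes. Oas2 rose from a mean of 8.35 to 20.3 CPM (log2 fold change 1.27, SE 0.19, adjusted p = 0.000124), Oas3 by 0.60 (SE 0.15, adjusted p = 0.0103) and Oasl1 by 0.68 (SE 0.21, adjusted p = 0.0367). Oas2 and Oas3 are oligoadenylate synthetase genes, of a family that senses double-stranded RNA, and Oasl1 is a synthetase-like gene of that family. The other genes of that family on the list were not called, with Oasl2 at 0.34 (adjusted p = 0.167), Oas1g at 0.14 (adjusted p = 0.892) and Oas1a at -0.24 (adjusted p = 0.474). The genes that fell were Ifi30, a lysosomal thiol reductase, at -0.87 (SE 0.28, adjusted p = 0.0456), and Ifit2, named here after its value was seen, at -0.32 (SE 0.07, adjusted p = 0.00654). The summed level of all 57 genes of the list was between 5630 and 5970 CPM in WT and between 5690 and 6270 CPM in RUNX1C KO, and these ranges overlap.

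Against P2- PreMegEs, edgeR called 0 of 19 signalling genes and 0 of 52 interferon-stimulated genes in RUNX1C KO, where 1.61% of 12588 genes were called, 1.33% higher and 0.278% lower. By unadjusted p under 0.05, 5 and 4 of them passed, and DESeq2 called 1 in each list. Against P2+ PreMegEs, 9 signalling genes were higher and 3 lower of 19, and 14 interferon-stimulated genes were higher and 5 lower of 53, where 37.0% of 12807 genes were called, 16.4% higher and 20.6% lower. Irf7 was higher than in P2+ by 1.25 (SE 0.13, adjusted p = 4.26e-05) and Mx2, an antiviral GTPase, by 2.37 (SE 0.53, adjusted p = 0.00507), from a mean of 0.423 CPM in P2+ that is near the floor. Socs3 and Socs1, suppressors of cytokine signalling, were lower than in P2+ at -3.65 (SE 0.87, adjusted p = 0.0076) and -1.25 (SE 0.30, adjusted p = 0.00707), and Socs3 is also 1 of the 17 immediate early genes. These comparisons share the RUNX1C KO libraries with that against WT.

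With replicate 2 of P2- left out, the counts against P2- were 0 signalling genes higher and 1 lower of 19, and 1 interferon-stimulated gene higher and 0 lower of 52, where 2.47% of all genes were higher and 0.811% lower. The counts against P2+, with its replicate 2 left out, were 10 higher and 3 lower of 19 and 14 higher and 5 lower of 53, where 19.0% of all genes were higher and 21.3% lower. Irf7, at 1.22 (adjusted p = 6.7e-06), and Mx2, at 2.48 (adjusted p = 0.00668), stayed called, as did Socs3, at -1.68 (adjusted p = 0.00158), and Socs1, at -1.36 (adjusted p = 0.00274).

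**Figure D4:**
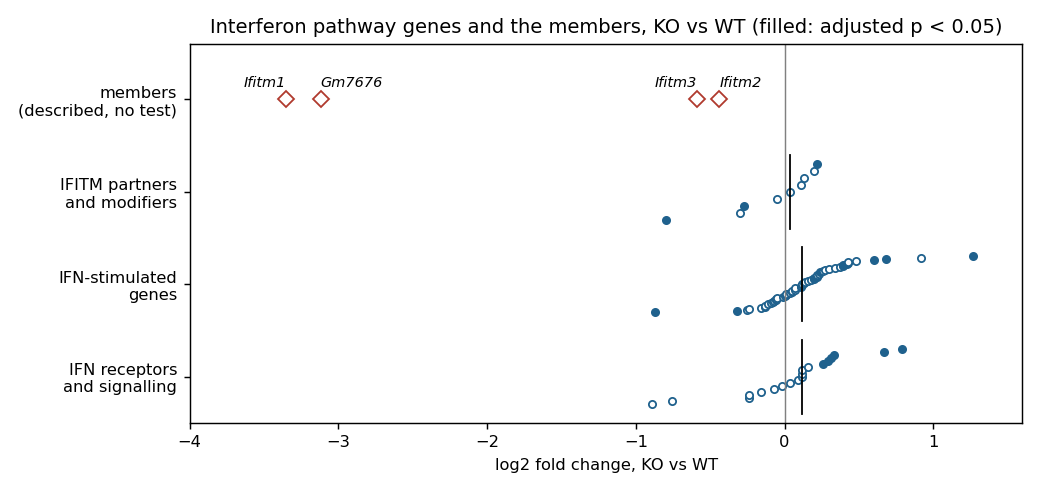
Each circle is 1 gene of 3 interferon-related lists, placed by its log2 fold change between RUNX1C KO and WT PreMegEs and filled where the edgeR adjusted p is under 0.05, with the median of the list as a black line. The diamonds are the 4 members, described without a test. Ifitm1 and Gm7676, at -3.35 and -3.12, lie below every gene of the lists, whose lowest called values are -0.87 for Ifi30 and -0.80 for Cd9.

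Between P2+ and P2- PreMegEs, where Ifitm3 was higher in P2+, 2 of 19 signalling genes were higher and 6 lower, and 7 of 52 interferon-stimulated genes were higher and 5 lower. Over all genes, 20.1% were higher and 17.0% lower. Ifngr1, the ligand-binding subunit of the interferon gamma receptor, was lower in P2+ at -1.35 (SE 0.10, adjusted p = 1.91e-05) and Irf7 at -1.06 (SE 0.17, adjusted p = 0.00149). Oasl1 was lower at -1.81 (SE 0.19, adjusted p = 0.000132), while the immunity-related GTPase Ifi47 was higher by 1.09 (SE 0.16, adjusted p = 0.00083). Exons of Ifi47 overlap those of Olfr56 on the same strand. Interferon-stimulated genes were thus called in both directions in this comparison. Without replicate 2 of both groups, 5 of 19 signalling genes were higher and 7 lower, and 7 of 51 interferon-stimulated genes were higher and 6 lower, where 20.2% of all genes were higher and 16.8% lower, and the genes named here stayed called. With the replicate number as a block, which pairs these libraries, 5 signalling genes were higher and 8 lower, and 12 interferon-stimulated genes were higher and 10 lower, where 25.9% of all genes were higher and 24.8% lower.

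Against WT, 2 signalling genes were higher and 5 lower in P2+, with 4 and 5 of 53 interferon-stimulated genes, and 2 higher and 2 lower in P2-, with 1 and 4 of 52 interferon-stimulated genes. Over all genes, 9.45% were higher and 7.07% lower in P2+, and 6.85% higher and 9.60% lower in P2-. Ly6a, a surface protein that is also a stem cell marker, was higher in P2+ by 1.53 (SE 0.36, adjusted p = 0.0158), at a mean of 3.31 CPM and 1.14 CPM in WT. The other genes that were higher in P2+, named after their values were seen, were Ifi47 by 0.67 (adjusted p = 0.00472), Oas3 by 0.52 (adjusted p = 0.0475) and Ifit2 by 0.46 (adjusted p = 0.0207). Cmpk2, a mitochondrial nucleotide kinase, was lower in P2+ at -0.76 (SE 0.09, adjusted p = 0.000458). Oasl1 was lower in P2+ at -0.87 (SE 0.25, adjusted p = 0.0398) and higher in P2- by 0.95 (SE 0.19, adjusted p = 0.00791). Ifit2 was lower in P2- at -0.48 (SE 0.09, adjusted p = 0.00489). The 2 signalling genes higher in P2- were Irf7, by 0.61 (SE 0.18, adjusted p = 0.0408), and Ifngr2, by 0.55 (SE 0.16, adjusted p = 0.0394). Both were also higher in RUNX1C KO than in WT.

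In P2+ against WT, leaving out replicate 2 of P2+ gave 1 signalling gene higher and 4 lower, with 7 and 5 of 53 interferon-stimulated genes, where 10.6% of all genes were higher and 8.47% lower. The call of Oasl1 in P2+ was then lost (-0.70, adjusted p = 0.0717) and those of Cmpk2 (-0.71, adjusted p = 0.000352), Ly6a (1.57, adjusted p = 0.0206), Ifi47 (0.81, adjusted p = 3.39e-05), Oas3 (0.66, adjusted p = 0.00484) and Ifit2 (0.57, adjusted p = 0.000984) were not. In P2- against WT, leaving out replicate 2 of P2- gave 3 signalling genes higher and 3 lower, with 5 and 2 of 52 interferon-stimulated genes, where 6.96% of all genes were higher and 10.3% lower. Oasl1 (0.99, adjusted p = 0.0041) and Ifit2 (-0.42, adjusted p = 0.00493) stayed called in P2-. So did Irf7 (0.73, adjusted p = 0.00739) and Ifngr2 (0.61, adjusted p = 0.0225).

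Of 9 genes whose proteins bind or modify IFITM proteins, 1 was higher and 2 lower in RUNX1C KO than in WT PreMegEs, where 6.18% of all genes were higher and 8.76% lower. Cd9, a tetraspanin that is also a megakaryocyte marker, was at a mean of 53.6 CPM in RUNX1C KO and 92.6 CPM in WT (log2 fold change -0.80, SE 0.08, adjusted p = 2.19e-06). Zdhhc20, an enzyme that palmitoylates IFITM3, was lower at -0.27 (SE 0.07, adjusted p = 0.0147), and Nedd4, a ubiquitin ligase that marks IFITM3 for degradation, was higher by 0.22 (SE 0.07, adjusted p = 0.0329). Against P2-, 1 of 8 genes was higher in RUNX1C KO and 0 lower, where 1.33% and 0.278% of all genes were. It was Cd9, by 0.53 (adjusted p = 0.0164). Without replicate 2 of P2- the counts were the same, where 2.47% and 0.811% were. Against P2+, 1 of 9 was higher and 4 lower, where 16.4% and 20.6% of all genes were, with Cd9 at -1.21 (adjusted p = 5.72e-06). Without replicate 2 of P2+, 2 were higher and 4 lower, where 19.0% and 21.3% were. Between P2+ and P2-, 5 of 9 were higher and 1 lower, where 20.1% and 17.0% of all genes were, and without replicate 2 of both groups 4 of 8 were higher and 1 lower, where 20.2% and 16.8% were. The block gave 6 higher and 1 lower, where 25.9% and 24.8% of all genes were. Cd9 was higher in P2+ by 1.73 (SE 0.10, adjusted p = 6.25e-06), Setd7, a lysine methyltransferase that acts on IFITM3, by 0.63 (SE 0.10, adjusted p = 0.00123) and Zdhhc20 by 0.51 (SE 0.09, adjusted p = 0.00188), and all of them stayed called without replicate 2 of both groups. In P2- against WT, 1 of 9 was higher and 3 lower, where 6.85% and 9.60% of all genes were. Cd9 was among the lower, at -1.32 (adjusted p = 2.01e-05). In P2+ against WT, 3 were higher and 1 lower, where 9.45% and 7.07% were, with Cd9 at 0.40 (adjusted p = 0.018). Without replicate 2 of P2-, 0 were higher and 2 lower, where 6.96% and 10.3% were. Without that of P2+, 4 were higher and 0 lower, where 10.6% and 8.47% were. Cd9 stayed called in both.

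Of 7 restriction factors of virus entry or release tested, edgeR called 0 between RUNX1C KO and WT PreMegEs, where 14.9% of all genes were called, 3 passed an unadjusted p under 0.05, all higher, and DESeq2 called 0. Between P2+ and P2-, Serinc3 was higher by 0.36 (SE 0.09, adjusted p = 0.0155) and Ly6e by 0.28 (SE 0.08, adjusted p = 0.0265), and Bst2 (tetherin) was lower at -0.44 (SE 0.15, adjusted p = 0.0465). These were 2 of 7 higher and 1 lower, where 20.1% and 17.0% of all genes were, and the same genes were called without replicate 2 of both groups. The block gave 3 higher and 3 lower, where 25.9% and 24.8% were. Of 8 other genes with a CD225 domain in the count table, 0 were high enough to be tested between RUNX1C KO and WT. Ifitm5, the bone-restricted family member, had at most 23 counts in any library.

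The genomic position of the members gives a further comparison. Ifitm2, Ifitm1, Ifitm3 and Ifitm6 lie within 63.1 kb of chromosome 7, at chr7:140954837-141017924, Ifitm10 lies 1307.9 kb further on, Ifitm7 is on chromosome 16 and Gm7676 on chromosome 8. Ifitm2 starts 12.4 kb before Ifitm1 and Ifitm3 42.4 kb after it, by their first bases in the genome, and they were at 74.1% and 66.7% of the WT level in RUNX1C KO. Of the 20 nearest protein-coding neighbours, 10 on each side, 18 were in the count table and 13 were tested. Between RUNX1C KO and WT PreMegEs, 4 of these 13 were lower and 0 higher, where 8.76% of all genes were lower and 6.18% higher. By unadjusted p under 0.05 in edgeR, 2 were higher, and DESeq2 called 1 higher and 4 lower. In P2- against WT, 2 of 13 were lower and 1 higher, where 9.60% and 6.85% of all genes were. Without replicate 2 of P2-, 2 were lower and 0 higher, where 10.3% and 6.96% were. In P2+ against WT, 1 was lower and 0 higher, where 7.07% and 9.45% of all genes were. Without replicate 2 of P2+, 0 were called, where 8.47% and 10.6% were.

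Nlrp6, an innate immune sensor that starts 46.3 kb before Ifitm1, was lower at -2.40 (SE 0.60, adjusted p = 0.0113), but at a mean of 0.292 CPM in RUNX1C KO and 1.59 CPM in WT it was near the floor. B4galnt4, a glycosyltransferase 93.9 kb after Ifitm1, was lower at -1.97 (SE 0.48, adjusted p = 0.00871), at 0.881 CPM in RUNX1C KO and 3.45 CPM in WT. Sirt3, a mitochondrial deacetylase, was lower at -0.64 (SE 0.13, adjusted p = 0.00219) and Athl1 at -0.27 (SE 0.09, adjusted p = 0.0404). Exons of Sirt3 overlap Psmd13 and Ric8a on the other strand. Against P2+, 3 of 13 neighbours were lower and 1 higher, where 20.6% of all genes were lower and 16.4% higher. Nlrp6 was at -3.07 (SE 0.61, adjusted p = 0.00276) B4galnt4 at -2.35 (SE 0.41, adjusted p = 0.00125) and Sirt3 at -0.77 (SE 0.12, adjusted p = 0.000741), and the one that was higher was Ptdss2, a phosphatidylserine synthase, by 0.51 (SE 0.13, adjusted p = 0.00951). Against P2-, edgeR called 0 of 12 neighbours, with 3 at an unadjusted p under 0.05 and 0 called by DESeq2, where edgeR called 1.61% of all genes. With replicate 2 of P2+ left out, 2 of 12 were lower and 1 higher against P2+, where 21.3% and 19.0% of all genes were, B4galnt4 stayed called (-2.18, adjusted p = 0.0016) and Nlrp6 was too low to be tested, and without replicate 2 of P2- again 0 of 12 neighbours were called against P2-, where 2.47% of all genes were higher and 0.811% lower. Between P2+ and P2-, 5 of 13 neighbours were higher and 2 lower, where 20.1% of all genes were higher and 17.0% lower, among them B4galnt4 by 1.32 (SE 0.36, adjusted p = 0.0187) and Sirt3 by 0.69 (SE 0.11, adjusted p = 0.0012), both higher. In the libraries other than replicate 2, 3 of 12 were higher and 2 lower, where 20.2% and 16.8% of all genes were, and the call of B4galnt4 was lost (1.20, adjusted p = 0.055). The block gave 6 of 13 higher and 2 lower, where 25.9% and 24.8% were. In P2- against WT, the neighbours called were Sirt3 at -0.56 (adjusted p = 0.0144), Athl1 at -0.33 (adjusted p = 0.0295) and Ptdss2 at 0.38 (adjusted p = 0.0306). In P2+ against WT it was Athl1 at -0.28 (adjusted p = 0.0474). Without replicate 2 of the reporter group, Sirt3 stayed called (-0.57, adjusted p = 0.0152). The calls of Athl1 were lost in P2- (-0.27, adjusted p = 0.0723) and P2+ (-0.24, adjusted p = 0.113), and that of Ptdss2 in P2- (0.31, adjusted p = 0.0854).

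**Figure D5:**
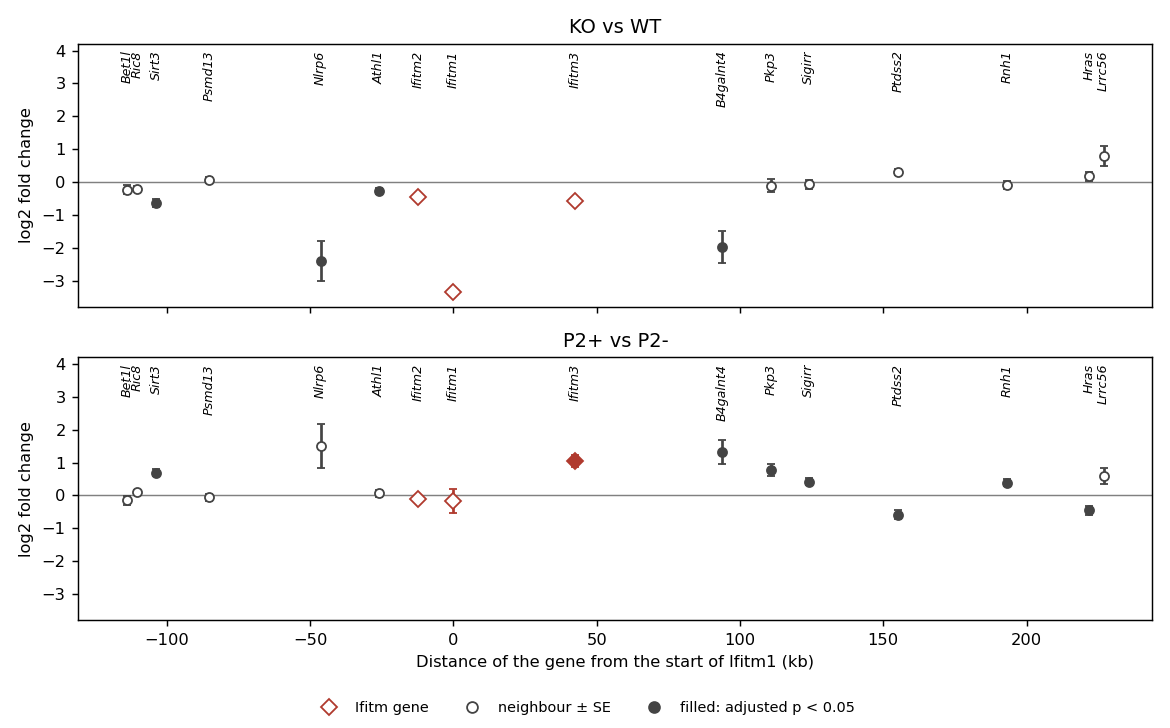
Log2 fold changes of the tested genes around Ifitm1 are plotted against the distance of each gene's first base from that of Ifitm1 in kb, between RUNX1C KO and WT PreMegEs above and between P2+ and P2- PreMegEs below. Circles are neighbours and diamonds Ifitm genes, bars are SE, and filled symbols have an adjusted p under 0.05. Ifitm genes in the upper panel are described without a test, with Ifitm1 at -3.35 between Ifitm2 at -0.44 and Ifitm3 at -0.59.

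The bases before the RefSeq start sites of Ifitm1 and Ifitm2 are shown because, of the tested Ifitm genes on chromosome 7, these lay farthest apart in RUNX1C KO against WT, at log2 fold changes of -3.35 and -0.44. They come from RefSeq on GRCm38.p6, where 6 of the 7 members had an entry, and were cut where the first exon of the GENCODE transcript at that start begins. The start of Ifitm1 in RefSeq lies near those of 2 of its 3 GENCODE transcripts, inside the gene span given above, and the start of the transcript that begins further upstream, at base 140967221, was not searched. The last 12 bases shown are in the first exon of one of these transcripts. The Ifitm1 line covers chr7:140967826-140968039 on the plus strand and the Ifitm2 line chr7:140955988-140956211 on the minus strand. Capitals mark a match to the core of the interferon-stimulated response element, searched as 2 copies of GAAA with 2 bases of any kind between them.
Ifitm1 promoter: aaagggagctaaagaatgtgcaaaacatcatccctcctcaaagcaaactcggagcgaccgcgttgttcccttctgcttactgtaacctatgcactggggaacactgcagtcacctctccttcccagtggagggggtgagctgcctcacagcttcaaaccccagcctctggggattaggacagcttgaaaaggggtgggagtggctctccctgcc
Ifitm2 promoter: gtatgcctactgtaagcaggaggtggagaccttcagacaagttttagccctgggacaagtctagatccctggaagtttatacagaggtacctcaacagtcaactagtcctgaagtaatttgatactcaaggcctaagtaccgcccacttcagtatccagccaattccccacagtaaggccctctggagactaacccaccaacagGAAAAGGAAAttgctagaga

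Each promoter entry, 250 bases before to 50 after the RefSeq start, was searched on both strands. The response element core was found in 3.44% of 32851 promoters. Ifitm2 held it once, as GAAAAGGAAA from base -46 to -37 before the start. Ifitm3 held it as GAAAAGGAAA from base 2 to 11 and as GAAACCGAAA from base 19 to 28, both after the start and counted from 0 at its first base. The Ifitm3 promoter also held TTCTGAGAA, a match to TTCNNNGAA, from base 13 to 21, which overlaps the latter and was a motif found in 8.3% of promoters. The RUNX motifs TGTGGT, in 16.8% of promoters, and TGCGGT, in 6.45%, were searched too, and the match found among the 6 members was to TGTGGT in Ifitm6. The Ifitm6 promoter also held TTCCTTGAA, a match to TTCNNNGAA, from base -10 to -2. The Ifitm1 promoter held none of these 4 motifs, which says only that these letters are not in this window.

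Among 13268 genes with at least 1 CPM in 3 libraries, leaving out the members, the 5 whose centred log2 CPM lay closest to that of Ifitm1 over the 12 libraries were Mmp17, Cd96, Elane, Olfr414 and Ankrd63. The root-mean-square difference was 0.665 for Mmp17 and 0.763 for Ankrd63, against 0.243 for Gm7676 and a median of 1.36 over all genes. These genes were expressed at low levels. Elane, which encodes neutrophil elastase, was at a mean of 7.53 CPM in WT, 3.47 in P2-, 4.58 in P2+ and 1.47 in RUNX1C KO. Cd96, a receptor of lymphoid cells, was at 2.25, 0.930, 2.05 and 0.235 CPM in the same order, and the matrix metalloprotease Mmp17 at 1.37, 0.604, 1.32 and 0.173 CPM. All RUNX1C KO libraries of Cd96, Mmp17 and Ankrd63 were at or under the floor of 3 counts, so their KO levels are uncertain.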

How the data were processed

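PreMegE libraries of 4 groups (WT, P2-, P2+ and RUNX1C KO, 3 each) were grouped by their labels. The libraries held poly(A) RNA with the strand kept. The authors mapped read pairs to GRCm38 with Bowtie2, which the submitters' processing notes list as version 2.21 beside SAMtools 0.1.19, R 3.1.0 and edgeR 3.8.5, and assigned them to Ensembl genes in featureCounts. The deposited table holds whole counts for each gene in each library, neither normalized nor pooled. The strand setting and the handling of reads with several alignments are not given in the sources used here.

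Here, each pair of groups was fitted on its own in edgeR 4.0.16 under R 4.3.3. TMM scaling was used, a gene needed 1 CPM in 3 of the 6 libraries, and the quasi-likelihood F-test was two-sided, with Benjamini-Hochberg adjustment over all genes and a threshold of 0.05. The script was tested on simulated data. DESeq2 1.42.0 and other settings were tried as alternatives. RPKM used exonic lengths of GENCODE vM21. Sequences were compared with BLAST+ 2.17.0 and Biopython 1.88. The SE is the log2 fold change over the root of F. The floor of 3 counts covers counting error only.

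P2+ and P2- libraries of the same number deviated together from their group means (correlations over genes 0.386, 0.572 and 0.405), so the numbers pair them. For other pairs of groups the correlations were between -0.0854 and 0.159. Replicates differed by more than sampling noise (chi-square over degrees of freedom from 4.62 to 35.0), so all libraries were kept as separate samples.

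The members and lists were chosen with earlier results of these data known. From each list, up to 4 called genes with the largest change may be named, and the 5 genes most like Ifitm1. The counts over a list include 1 gene that is not reported here by name.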

Additional observations from a re-analysis of the deposited data

How the results depend on the processing

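The KO levels of Ifitm1 ran from a log2 fold change of -3.56 to -3.08 against WT, -2.87 to -1.94 against P2- and -2.61 to -2.13 against P2+ over the alternatives. With Ifitm1 and Gm7676 summed, 1 member in place of 2 was at least 2-fold lower in each KO comparison and 1 was called between P2+ and WT, since the sum leaves fewer genes. Between P2+ and WT, 2 members were called, but 0 with all 12 libraries in 1 fit, 0 with a 2-fold minimum and between 1 and 3 with a replicate left out. Between P2- and WT, 1 was called, but 0 with a 2-fold minimum, 2 without a filter on low counts, 3 without replicate 2 of both reporter groups and between 1 and 3 with a replicate left out. Between P2+ and P2-, 1 was called, but 2 without replicate 2 of both groups and between 1 and 2 with a replicate left out. Apart from the sum and the left-out libraries, the cause was not tested.

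Signs turned between P2+ and P2- in the values of Ifitm1 and Gm7676, which were not called with all libraries. Ifitm1 ran from -0.48 to 0.45 with a replicate left out, with 0.45 without replicate 2 of P2- and 0.31 without replicate 2 of both groups. Gm7676, at 0.00, was at -0.01 without a filter, 0.00 with DESeq2 and between -0.35 and 0.73 with a replicate left out. The value of 0.73, without replicate 2 of P2-, was called (adjusted p = 0.0373). Ifitm3 stayed called between P2+ and P2- (0.87 to 1.25) and between P2- and WT (-0.87 to -0.65) under all alternatives run, except that its change from WT in P2- missed the 2-fold minimum.

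With the replicate number as a block, 1 member, Ifitm3, was called between P2+ and P2-, at 1.04 (adjusted p = 2.79e-06), and Ifitm1 was at -0.06 and Gm7676 at 0.16. The block moved the genes called from 4762 to 6513 between P2+ and P2- and, where the numbers do not pair samples, from 203 to 102 between KO and P2-. It changed no call of a member. Of 1201 values of named list genes, 1002 kept direction and call, 199 lost the call and 0 reversed. The filter on low counts left out Ifitm6, Ifitm7 and Ifitm10, and depth sets the floor of 3 counts.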
